A study of Mus musculus with 8 samples.

Results

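The genes described here encode the ligands Nodal and Gdf3, their co-receptor Tdgf1 (Cripto), the secreted inhibitors Lefty1, Lefty2 and Cer1, and the inhibitory signal protein Smad7. They were chosen by name for their place in 1 pathway, as 7 genes, and every array probe that the platform annotation gives to them was taken. This gave 7 probes, 2 of them for Tdgf1, of the 25697 on the array, covering 6 of the 7 genes among 16593 genes with a named probe. Smad7 was not analysed here. In all, 5 of the 7 genes were above background often enough to enter the tests, among 8816 genes or unnamed probes tested.

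Illumina bead arrays, which read RNA with probes carried on beads, were run on 8 lines of mouse embryonic stem cells, 1 array per line. The 6 tNT lines are labelled tetraploid and came from tetraploid nuclear transfer, in which, by the series title, 2 somatic nuclei were reprogrammed together in 1 ooplasm. Passage, which counts how often a culture has been split, was taken from the design text as 17, 19, 25, 29, 18 and 25 for tNT lines 1 to 6. The 2 NT lines came from nuclear transfer, are labelled not tetraploid, and have no passage number. All lines are labelled as mixed strain, and all carry the note of double sedimentation, which the labels do not explain. The donor cell type, age and sex are not given in the sources used here, and each line stands for itself alone, with no second culture named. With 6 arrays against 2, array number sets the precision, and a p-value here speaks of the spread among these particular lines.

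Nodal is a secreted ligand of the TGF-beta family that signals through activin receptors and Smad proteins. It needs a co-receptor such as Tdgf1 at the cell surface to do so. Gdf3, a related ligand, also signals with Tdgf1, and it is abundant in pluripotent cells. The Lefty proteins are induced by Nodal signalling and block it from outside the cell, a classic negative feedback loop, while Cer1 binds Nodal directly. In the mouse embryo the pathway patterns the epiblast and induces the primitive streak, and in mouse embryonic stem cells Lefty1 and Lefty2 are read as sensitive targets of it.

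Promoter windows from 250 bases before to 50 bases after the gene start were available for Nodal, Tdgf1 and Cer1, from RefSeq on build GRCm38.p6. They are shown because Foxh1 and Smad proteins, the transcription factors of the pathway, act on genes of this kind. Nodal lies at chr10:61417722-61418021 on the plus strand, Tdgf1 at chr9:110946109-110946408 on the minus strand and Cer1 at chr4:82885102-82885401 on the minus strand. Each is printed 5′ to 3′ on the strand of its gene, with matches in capitals.
Nodal: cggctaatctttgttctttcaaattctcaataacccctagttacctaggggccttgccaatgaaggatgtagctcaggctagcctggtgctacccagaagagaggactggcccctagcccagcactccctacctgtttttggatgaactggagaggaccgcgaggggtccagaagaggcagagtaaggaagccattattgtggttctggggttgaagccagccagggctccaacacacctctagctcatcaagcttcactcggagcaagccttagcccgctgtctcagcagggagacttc
Tdgf1: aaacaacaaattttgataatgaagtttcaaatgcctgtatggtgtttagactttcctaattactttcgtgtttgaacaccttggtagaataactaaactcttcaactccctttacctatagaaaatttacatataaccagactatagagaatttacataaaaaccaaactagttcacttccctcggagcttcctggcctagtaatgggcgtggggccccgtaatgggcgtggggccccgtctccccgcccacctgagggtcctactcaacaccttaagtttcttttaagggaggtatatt
Cer1: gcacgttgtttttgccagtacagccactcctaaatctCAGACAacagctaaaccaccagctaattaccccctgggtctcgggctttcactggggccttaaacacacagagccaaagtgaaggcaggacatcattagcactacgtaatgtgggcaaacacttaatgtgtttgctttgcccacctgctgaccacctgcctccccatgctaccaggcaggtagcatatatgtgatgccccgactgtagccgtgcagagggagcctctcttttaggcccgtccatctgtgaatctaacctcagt
The motifs searched on both strands were AATNCACA, a core of the Foxh1 motif, and CAGACA and GTCTAGAC, Smad motifs. The 1 match was CAGACA in Cer1, starting 213 bases before the gene start. Of all 32851 promoter windows in the table, 21.0% hold CAGACA, 3.601% hold AATNCACA and 0.213% hold GTCTAGAC. These matches describe letters in a short window and say nothing of whether a factor binds there.

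The first comparison asks how the pathway's genes in tNT lines stand beside those in NT lines. None of the 5 genes tested passed an adjusted p of 0.05 (limma, smallest adjusted p = 0.382), while 1.86% of all genes tested did. At an unadjusted p under 0.05 none of the 5 was lower either, against 8.60% of all genes tested. The differences were small, between -0.26 and 0.12 on the log2 scale. Nodal, Gdf3, Lefty1 and Lefty2 had lower means in tNT lines and Tdgf1 a higher one, and over all genes tested 49.1% had a lower mean in tNT lines. The median difference was -0.16 over the 5 genes and 0.01 over all genes. With 1 line left out at a time, the difference kept its sign but not its size. It lay between -0.30 (without NT line 2) and -0.029 (without NT line 1) for Nodal, and between -0.33 (without NT line 1) and -0.19 (without NT line 2) for Gdf3. For Tdgf1 it lay between 0.016 (without tNT line 3) and 0.29 (without tNT line 5). For Lefty1 it lay between -0.31 (without tNT line 2) and -0.083 (without tNT line 4), and for Lefty2 between -0.19 (without tNT line 3) and -0.034 (without tNT line 5). Values are normalized log2 intensities throughout, so that 1 unit is a doubling, and levels of different probes are not set against each other.

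Nodal, the ligand that names the pathway, measured 8.70, 8.74, 8.91, 8.31, 8.67 and 8.75 in tNT lines 1 to 6, against 8.98 and 8.71 in the NT lines. It was above background on all 8 arrays. The groups overlapped: tNT lines 2, 3 and 6 lay above NT line 2, and tNT line 4 stood lowest. The means were 8.68 ± 0.20 for tNT lines (SD, n = 6) and 8.85 ± 0.19 for NT lines (SD, n = 2). The log2 difference was -0.16, with a 95% interval from -0.53 to 0.20 (limma, adjusted p = 0.646).

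Gdf3 measured 10.20, 10.40, 10.05, 9.995, 10.33 and 10.33 in tNT lines 1 to 6, against 10.41 and 10.55 in the NT lines. All 6 tNT values lay below both NT values, although tNT line 2 and NT line 1 were almost level. Groups did not overlap for 21.7% of all genes tested, and of the 5 genes this held for Gdf3 alone. With each array scaled to its median in place of quantile normalization, tNT line 2 reached 10.50 against 10.40 and 10.49 in the NT lines, and the groups overlapped. The means were 10.22 ± 0.17 for tNT lines (SD, n = 6) and 10.48 ± 0.10 for NT lines (SD, n = 2), and the log2 difference was -0.26 with a 95% interval from -0.58 to 0.06 (limma, adjusted p = 0.382).

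Tdgf1, the co-receptor, has 2 probes. The brighter one gave 7.03, 7.45, 7.58, 7.26, 6.21 and 6.68 in tNT lines 1 to 6, against 7.003 and 6.82 in the NT lines. Here tNT lines lay on both sides of the NT lines, with lines 5 and 6 below both. The means were 7.04 ± 0.51 for tNT lines (SD, n = 6) and 6.91 ± 0.13 for NT lines (SD, n = 2). The log2 difference of 0.12 had the widest 95% interval of the 5 genes, from -0.59 to 0.84 (limma, adjusted p = 0.882).

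The dimmer Tdgf1 probe was close to background. It was above background on 5 of 6 tNT arrays and on 1 of 2 NT arrays, with intensities before normalization of 121 to 152 in tNT lines and 135 and 126 in NT lines. Its normalized values were 5.35, 5.76, 5.63, 5.48, 5.84 and 5.38 in tNT lines 1 to 6, against 5.49 and 5.27 in the NT lines. Line 5, the lowest of all arrays by the brighter probe, was the highest by this one after normalization. Before normalization it read 129 by the dimmer probe, against 152 in line 2, so its place as the highest depends on the normalization. In a fit of every probe its log2 difference was 0.19 (limma, adjusted p = 0.590).

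Lefty1, a feedback inhibitor, measured 10.64, 11.23, 10.44, 10.10, 10.76 and 10.72 in tNT lines 1 to 6, against 10.76 and 10.92 in the NT lines. Of the 8 arrays, line 2 was the highest, and the other 5 tNT lines lay below both NT lines, line 5 only just below NT line 1. The means were 10.65 ± 0.37 for tNT lines (SD, n = 6) and 10.84 ± 0.11 for NT lines (SD, n = 2). The log2 difference was -0.19, with a 95% interval from -0.73 to 0.35 (limma, adjusted p = 0.738).

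Lefty2, the second feedback inhibitor, measured 11.85, 11.94, 12.04, 11.36, 11.25 and 11.45 in tNT lines 1 to 6, against 11.73 and 11.79 in the NT lines. The tNT lines stood on either side of the NT lines, with lines 1 to 3 above and lines 4 to 6 below. The means were 11.65 ± 0.33 for tNT lines (SD, n = 6) and 11.76 ± 0.04 for NT lines (SD, n = 2). The log2 difference was -0.11, with a 95% interval from -0.61 to 0.38 (limma, adjusted p = 0.837), and that mean describes neither set of tNT lines.

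**Figure D1:**
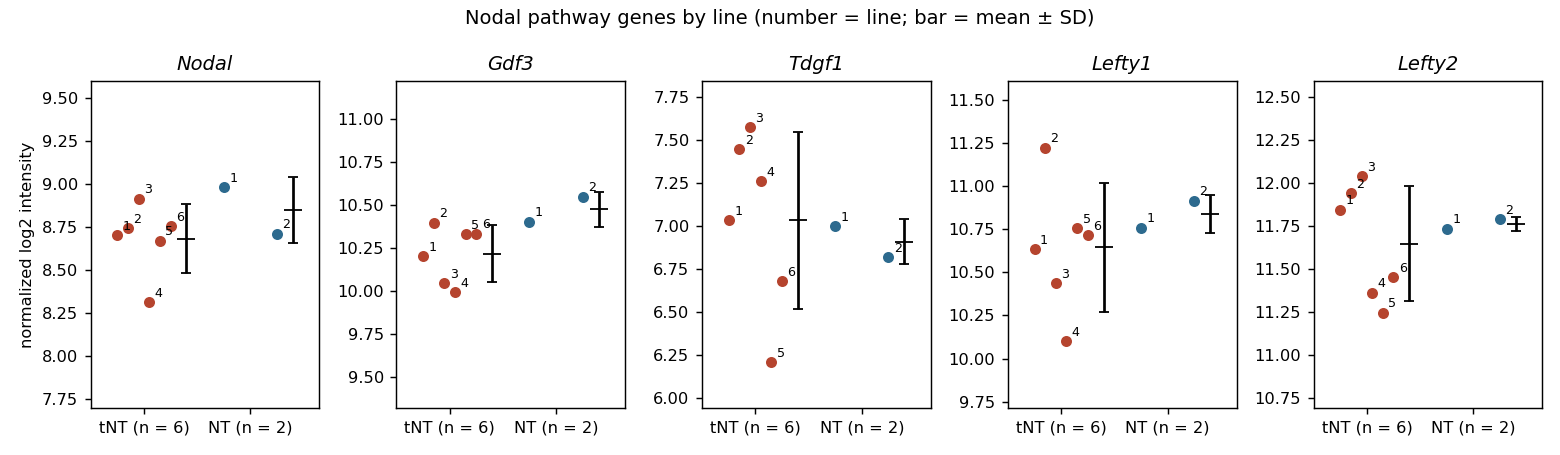
Normalized log2 intensity of 5 Nodal pathway genes in each line, tNT lines at the left of each panel and NT lines at the right; numbers are line numbers, bars are mean ± SD, and every panel spans the same number of log2 units. Groups overlap for all but Gdf3, where the tNT lines reach 10.40 and the NT lines start at 10.41, and Lefty2 separates tNT lines 1 to 3 from lines 4 to 6.

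Cer1, the secreted Nodal antagonist, was at the limit of detection. It was above background on 0 of 6 tNT arrays and on 1 of 2 NT arrays, and so did not enter the tests. Intensities before normalization were 114, 122, 94.8, 116, 105 and 110 in tNT lines 1 to 6, against 133 and 126 in the NT lines. Detection p-values were 0.0852 to 0.345 in tNT lines, against 0.00501 and 0.0138 in NT lines. All 6 tNT values lay below both NT values, also after normalization, at 4.57 to 4.89 in tNT lines against 5.44 and 5.26 in NT lines. Groups separate in this way for 21.7% of all genes tested, and the tNT values are not above background, so no fold or difference is given and a lower level in tNT lines is not established.

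Cer1 and Lefty1 are also made by visceral endoderm, an extra-embryonic tissue, so its markers were read beside them. Of 12 such markers 5 entered the tests, and Gata4, Sox17, Foxa2, Afp, Ttr and Pdgfra were above background on fewer than 2 arrays. The mean log2 value of the 5 was 6.22 to 6.43 in tNT lines and 6.46 to 6.51 in NT lines. None of the 5 passed, and they went both ways: the log2 difference was -1.25 for Gata6 (limma, adjusted p = 0.0576), 0.99 for Sox7 (adjusted p = 0.229), -0.35 for Dab2, -0.19 for Amn and -0.07 for Hhex. Gata6 was above background on 2 of 6 tNT arrays and Sox7 on 1 of 2 NT arrays, so the sizes of these 2 differences are uncertain. The part of visceral endoderm cells in the Cer1 signal was not tested. In bulk samples, fewer cells of a type and less RNA per cell cannot be told apart.

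The second comparison is among the tNT lines. By its brighter probe Tdgf1 had an SD of 0.51, at percentile 95.01 of all genes tested, and by its dimmer probe 0.20. Lefty1 had an SD of 0.37, at percentile 84.3, and Lefty2 of 0.33, at percentile 78.3. Nodal and Gdf3 had SDs of 0.20 and 0.17, at percentiles 42.3 and 30.6, and without line 4 the SD of Nodal was 0.094. The median SD was 0.22 over all genes tested. As a fold between the highest and the lowest tNT line, the spread was 2.58 for Tdgf1, 2.18 for Lefty1, 1.73 for Lefty2, 1.52 for Nodal and 1.32 for Gdf3. The brighter Tdgf1 probe read 144 to 287 before normalization, and its SD was 0.30 with no background correction and 0.61 with the authors' processed values. The order of these 3 genes is not settled: with no background correction Lefty1 had an SD of 0.35 and Lefty2 of 0.33, both above Tdgf1, and without tNT line 5 the SD was 0.35 for Tdgf1 and 0.41 for Lefty1. With 1 array per line there is no test between single lines.

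Line 2 lay above the tNT median in all 5 genes, by 0.02 for Nodal and 0.55 for Lefty1 at the extremes, and no line lay below it in all 5. Line 2 had the highest tNT value for Gdf3 and Lefty1, and line 3 for Nodal, Tdgf1 and Lefty2. Line 4 had the lowest for Nodal, Gdf3 and Lefty1, and line 5 for Tdgf1 and Lefty2. As deviations from each gene's tNT median, Lefty1 stood at 0.55 in line 2 and -0.58 in line 4, and Tdgf1 at -0.94 in line 5 and -0.47 in line 6. Line 1 stayed within 0.20 of the median for all 5 genes. Between the NT lines the gap was 0.27 for Nodal, 0.14 for Gdf3, 0.18 for Tdgf1, 0.16 for Lefty1 and 0.06 for Lefty2.

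**Figure D2:**
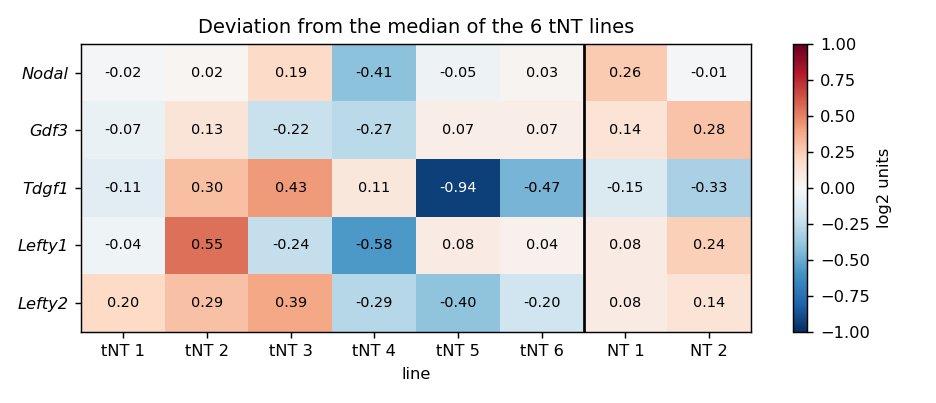
Deviation of each gene's log2 value from the median of the 6 tNT lines, with lines across (tNT left of the black rule, NT right) and genes down; red is higher, blue is lower. The strongest deviations are Tdgf1 in tNT line 5 (-0.94) and Lefty1 in tNT lines 4 (-0.58) and 2 (0.55), and tNT line 2 is above the median in all 5 genes.

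Some measures of the arrays moved with these lines. Line 2, the highest for Lefty1, had the lowest mean correlation with the other tNT lines, 0.973. It also had the highest level of fibroblast or feeder markers. The mean over 6 of 10 such markers was 7.07 to 8.19 in tNT lines, with 8.19 in line 2, and 7.16 to 7.38 in NT lines, and Col1a2, Col3a1, Postn and Prrx1 were above background on fewer than 2 arrays. Genes of chromosome 10, where Nodal lies, had median deviations of -0.10 in line 2 and -0.11 in line 3, and those of chromosome 6, where Gdf3 lies, of 0.14 in line 2. Chromosome 1, with both Lefty genes, stood between -0.01 and 0.02 in the tNT lines, and chromosome 9, with Tdgf1, between -0.02 and 0.05. The part of these differences in the results was not tested. Between 10449 and 10969 probes were above background on an array. Stem cell markers including Pou5f1, Sox2, Nanog and Esrrb were above background on all 8 arrays. Of 10 such markers 9 entered the tests, with a mean log2 value of 11.74 to 11.97 in tNT lines and 11.64 and 11.65 in NT lines. In tNT lines 5 of the 9 had higher means and 4 lower ones. Fbxo15 alone passed, at 0.57 (limma, adjusted p = 0.0424), and Klf4 did not, at 0.92 (adjusted p = 0.161).

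Of the 5 genes, Lefty2 alone set tNT lines 4 to 6 apart from lines 1 to 3. Lines 4 to 6 lay below lines 1 to 3 and below both NT lines, and did so under all 5 normalizations tried, the authors' processed values included. These all use the same arrays, and the share of all genes tested that split in this way was not counted. Lefty1 did not share this order, since line 2 was highest and line 4 lowest. The sequences of these probes were not used here, so whether each reads its own Lefty gene alone was not tested.

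Over the 8 arrays, the genes whose log2 values were most like those of Lefty2 by Pearson correlation were Hemk1 (0.97), Zfp213 (0.97) and Tfb1m (0.96). Tfb1m, which acts in mitochondrial ribosome assembly, measured 7.85, 7.89, 7.92, 7.36, 7.26 and 7.52 in tNT lines 1 to 6, against 7.88 and 7.84 in the NT lines. Hemk1 spanned a wider range, at 8.50, 8.53 and 8.92 in tNT lines 1 to 3 and 7.47, 7.36 and 7.70 in lines 4 to 6, against 8.53 and 8.24 in the NT lines. In each of these 3 genes, lines 4 to 6 were the lowest arrays. The 3 were picked for their likeness to Lefty2 over these same arrays, so this is no separate evidence for the split.

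**Figure D3:**
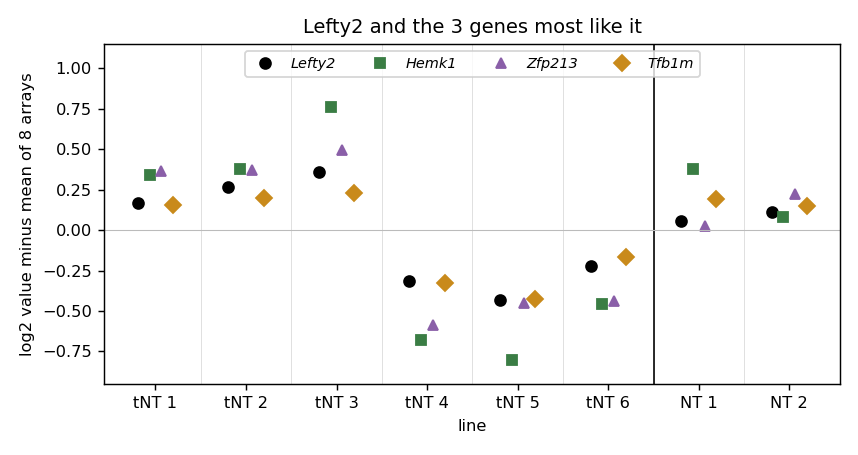
Log2 value of Lefty2, Hemk1, Zfp213 and Tfb1m in each line, minus the gene's own mean over the 8 arrays, with tNT lines left of the black rule and NT lines right of it. In all 4 genes tNT lines 4 to 6 lie below the other 5 arrays.

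The nearest genes to the others were found the same way. Gdf3 was most like Mbd3 (0.99), a subunit of the NuRD chromatin complex, Oaz1 (0.97) and Dusp4 (0.97), a phosphatase of MAP kinases. Lefty1 was most like Tmem259 (0.97), Zcrb1 (0.95) and Pank1 (0.95). Nodal was most like Zfand2b (0.97), Ank2 (0.93) and Otud6b (0.91), and Tdgf1 most like Cela1 (0.96), Poll (0.95) and Ip6k2 (0.94). No gene is shared between these lists. Such values are picks from 8816 genes or unnamed probes over 8 arrays that share 1 normalization, and are given as description.

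Of the 6 pairs among Nodal, Gdf3, Tdgf1 and Lefty1, tested over the 6 tNT lines, none passed. No r is given for the 4 pairs with Lefty2, whose tNT values fall into separate sets, but the p-values were adjusted over all 10 pairs. Gdf3 and Lefty1 came nearest, with r = 0.91 (exact permutation test, 2-sided, p = 0.00556, adjusted p = 0.0556) and rho = 0.94 (exact permutation p = 0.0167, adjusted p = 0.167). Adjusted over the 6 pairs without Lefty2, a choice made after its values were seen, the exact permutation p for that r was 0.0333. Without tNT lines 4 and 3, the farthest from the Gdf3 median, r was 0.78 over the 4 lines left. With arrays scaled to their medians r was 0.91 and the adjusted p 0.194 (exact permutation test). The other pairs had r between -0.48 and 0.52, with exact permutation p of 0.317 to 0.811. For the ligand Nodal and its co-receptor Tdgf1, r was 0.10. The labels name no batch within which these values could be repeated.

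Passage was compared as a slope over the 6 tNT lines, in log2 units per passage. None of the 5 genes passed (limma, adjusted p = 0.994 each), and of all genes tested 0% did, with 4.44% at an unadjusted p under 0.05. Lefty1 had a slope of -0.05 ± 0.02 (SE), with a 95% interval from -0.11 to 0.00 (limma, unadjusted p = 0.0530). Without line 4 it was -0.031 (unadjusted p = 0.394), and without line 1 it was -0.076 (unadjusted p = 0.0242). Its lowest value was in line 4, at passage 29, and its highest in line 2, at passage 19. Slopes were 0.04 for Tdgf1, -0.02 for Gdf3, -0.02 for Nodal and -0.01 for Lefty2. Without line 4 the slopes of Nodal and Lefty2 turned to 0.02 and 0.01.

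**Figure D4:**
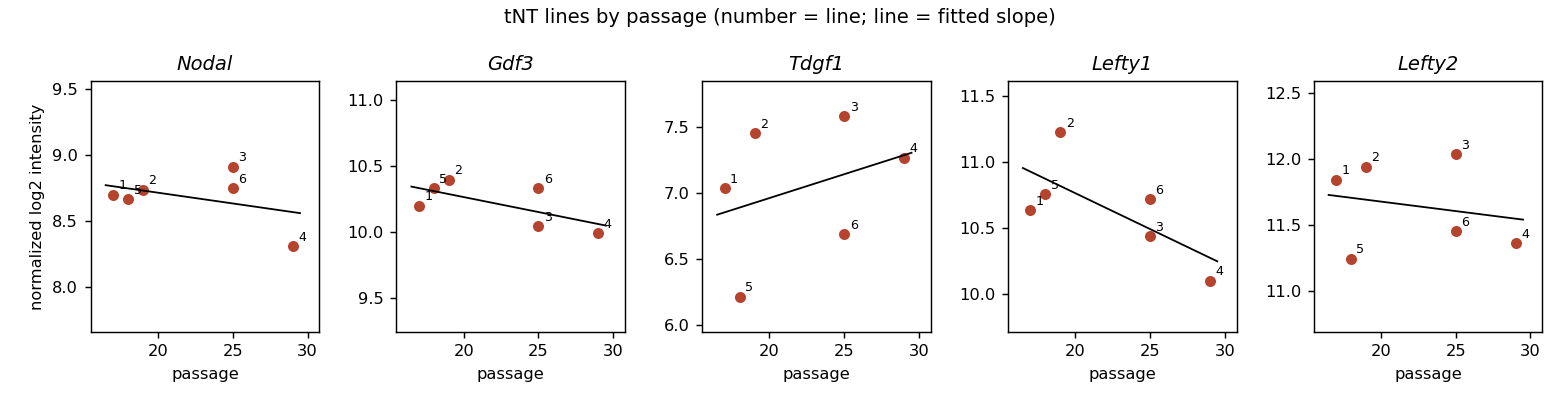
Normalized log2 intensity of 5 Nodal pathway genes in the 6 tNT lines against passage, with the fitted slope as a line; numbers are line numbers. The slope is -0.05 log2 units per passage for Lefty1 and 0.04 for Tdgf1, and none of the slopes passed the test; without tNT line 2 or line 4 the slope of Tdgf1 is the steeper of these.

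Other genes of the pathway were read from 7 lists of 65 genes, of which 41 entered the tests. Among the 41, 0 were higher and 2 were lower in tNT lines past the threshold, beside 0.896% higher and 0.964% lower of all genes tested. Their median log2 difference was -0.03, and 24 of the 41 had lower means in tNT lines.

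Both called genes belong to the primitive streak and mesendoderm targets, a list of genes that Nodal signalling induces in the embryo. Of its 9 genes 4 entered the tests, all with lower means in tNT lines, with a median of -1.16, or -0.72 with Lhx1 at its bound. Fgf8, which encodes a fibroblast growth factor made in the streak, measured 5.05, 5.90, 4.64, 4.89, 5.06 and 5.26 in tNT lines 1 to 6, against 8.48 and 9.05 in NT lines. It was above background on 1 of 6 tNT arrays, so the size of its log2 difference depends on the background treatment. It was -3.63 here (limma, adjusted p = 8.85e-04), -2.11 with no background correction and -4.61 with the authors' processed values. Lhx1, a transcription factor of the anterior streak, measured 4.40, 4.49, 4.46, 4.71, 4.45 and 4.79 in tNT lines 1 to 6, against 6.07 and 6.17 in NT lines (limma, adjusted p = 0.00112). It was above background on 0 of 6 tNT arrays and, by the normalization used here, at least 1.61-fold lower in tNT lines. That bound does not carry over to other background treatments. The log2 difference of Lhx1 was -1.57 here, -0.60 with no background correction and -2.98 with the authors' processed values. Both genes passed the detection filter only, or nearly only, through the NT arrays, which favours lower tNT values. Mixl1, Foxa2 and Sox17 were above background on fewer than 2 arrays. Of 6 markers of primed epiblast and streak tested, 5 were lower past the threshold, but Fgf8 and Lhx1 are 2 of these. The others were Fgf5, Wnt8a and Wnt3a (limma, adjusted p = 0.0176, 0.0364 and 0.0424). They were above background on 2, 1 and 0 of 6 tNT arrays, so for Wnt8a and Wnt3a the filter favours lower tNT values too. The mean log2 value of the 6 markers was 5.47 to 5.98 in tNT lines and 7.43 to 7.55 in NT lines. Of 6 trophoblast markers tested, the keratins Krt8 (-1.94) and Krt18 (-2.10) were lower past the threshold (limma, adjusted p = 0.00505 and 0.00464). The others did not pass, at -0.84 for Krt19, -0.81 for Gata3, -0.34 for Cdx2 and 0.28 for Tfap2c (limma, smallest adjusted p = 0.0598). That smallest value is of Krt19, which was above background on 0 of 6 tNT arrays and on 2 NT arrays. For Krt19 too the filter favours lower tNT values, and the size of its difference is not established. Groups overlapped for Gata3, Cdx2 and Tfap2c. The mean of the 6 trophoblast markers was 7.16 to 7.57 in tNT lines and 8.32 to 8.44 in NT lines. The part of such cells in the results was not tested.

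Ligands and their processing gave no call. The protease Furin, which cleaves the Nodal precursor, had a log2 difference of -0.37 (limma, adjusted p = 0.165). Inhbb and Inhba, the activin subunits, differed by 0.30 and 0.54 (limma, adjusted p = 0.231 and 0.401). The secreted antagonists Fst, which binds activin, and Fstl1 differed by -0.44 and -0.60 (limma, adjusted p = 0.317 and 0.116), and these were the 2 of 5 listed antagonists that entered the tests.

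Receptors were measured for 5 of 9 listed genes, and none passed. Tgfbr2 and Tgfbr1, receptors of TGF-beta, differed by -0.31 and 0.06 (limma, adjusted p = 0.634 and 0.889). Hspa5, a chaperone that binds Tdgf1, differed by 0.22 (limma, adjusted p = 0.766). Its probe passed the background level on 2 tNT arrays and on 0 NT arrays. The activin receptor gene Acvr2b was above background on all arrays and differed by -0.03 (limma, adjusted p = 0.941). The Nodal receptor genes Acvr1b, Acvr1c and Acvr2a, and the co-receptor Cfc1, were above background on fewer than 2 arrays and were not tested.

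Inside the cell, 6 of 7 listed Smads and nuclear partners were measured. Foxh1, the DNA-binding partner of Smad2, measured 6.36, 7.04, 5.99, 5.90, 6.44 and 5.40 in tNT lines 1 to 6, against 7.29 and 7.15 in NT lines. All 6 tNT values lay below both NT values, a separation seen in 21.7% of all genes tested, and the log2 difference was -1.03 ± 0.34 (SE), which did not pass (limma, adjusted p = 0.155). It passed without tNT line 2, at -1.20 (limma, adjusted p = 0.0312), and with array weights. It was -0.54 with no background correction (adjusted p = 0.0994) and -0.52 with the line number as a block (adjusted p = 0.327). The second Foxh1 probe, used when detection on all 8 arrays was required, gave -0.77 (limma, adjusted p = 0.108). Smad2, which carries the signal to the nucleus, and Drap1, a Foxh1 repressor, differed by 0.30 and -0.23 (limma, adjusted p = 0.381 and 0.409).

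Among intracellular inhibitors 9 of 10 were measured, and none passed. The ubiquitin ligases Smurf2 and Smurf1, which act on Smads and receptors, differed by 0.43 and 0.52 (limma, adjusted p = 0.120 and 0.201). Ppm1a, a phosphatase of Smad2, differed by 0.34 (limma, adjusted p = 0.161). In all 3 of these genes the 6 tNT values lay above both NT values, as in the inhibitor Nedd4l, in Inhbb and in Id1 of the BMP list. Other pathway genes lay wholly below both NT values, Foxh1 and Id3 among them. Groups were apart in one direction or the other for 21.7% of all genes tested.

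The BMP pathway, a sister branch that shares Smad4, gave no call among 12 of 19 measured genes. Id3, a direct BMP target, measured 6.51 to 7.13 in tNT lines, with a mean of 6.85, against 7.51 and 7.57 in NT lines. Its log2 difference of -0.68 missed the threshold (limma, adjusted p = 0.0600) and passed with a larger offset, at an adjusted p of 0.0445, with no background correction, at 0.0455, and without tNT line 2, at 0.0221. Bmp4, a ligand of this branch, and Chrd, its antagonist, differed by -0.51 and -0.43 (limma, adjusted p = 0.128 and 0.209). Chrd was above background on 2 of 6 tNT arrays, so the size of its difference depends on the background treatment. That difference was -0.15 with no background correction and -0.70 with the authors' processed values.

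**Figure D5:**
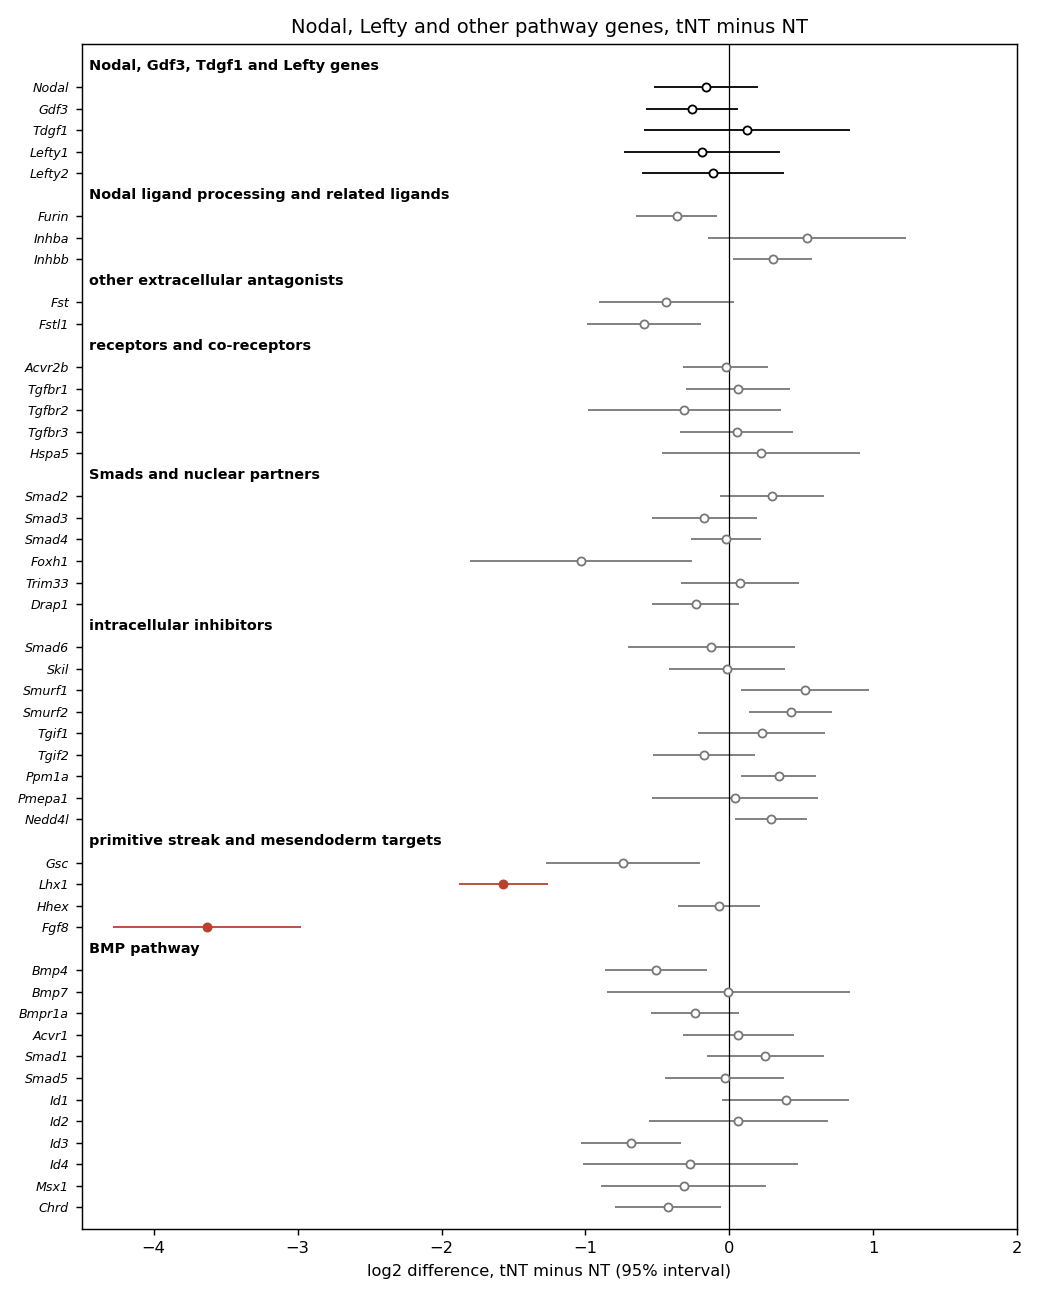
Log2 difference (tNT minus NT) with its 95% interval for the Nodal, Gdf3, Tdgf1 and Lefty genes and for 41 other pathway genes by list; filled red points passed an adjusted p of 0.05 and open points did not. Fgf8 and Lhx1 are the filled points, placed by tNT values that were above background on 1 and 0 of 6 arrays, and the intervals of all 5 genes at the top include 0.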

How the data were processed

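Per the file headers, the authors deposited 1 linear bead intensity for each probe on each array, paired with a detection p-value. The values hold no sign of background subtraction. A second deposited table holds the authors' log2 values of the same arrays. It orders the probes of every array as the intensities do and has a median of 3.49 in every column, and which background step it had is unknown. BeadStudio 3.2, lumi and RMA appear in the submitters' processing notes, without their roles.

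Intensities were normalized with neqc (limma 3.58.1, R 4.3.3, offset 16). Genes entered the tests by their brightest probe among those with detection p under 0.01 on 2 or more arrays. Groups and passage were fitted with lmFit and eBayes, 2-sided, with Benjamini-Hochberg adjustment over all 8816 and a threshold of 0.05. Quantile normalization hides a difference in total RNA per cell. Probe names come from the platform annotation, updated through RefSeq identifiers (23962 probes matched). Pairs used exact permutation tests (scipy 1.17.1), adjusted over all 10 pairs, with no r given for pairs with Lefty2. Figures used matplotlib 3.10.9.

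The genes and lists were chosen with earlier results of these data known. Named were the 5 tested genes and Cer1, of each list the genes past the threshold or else the 3 of smallest p, and the 3 genes most like each by correlation. The marker genes, Acvr2b, Nedd4l, Id1 and the genes named as not tested were named outside that rule, after their values were seen. The fits were tested on simulated data.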

Additional observations from a re-analysis of the deposited data

Results flagged for a closer look

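For each of 26 probes and named pathway genes the 6 tNT values were examined with Dixon's ratio, the gap to the nearest value over the whole range, and in 2 of them 1 line stood apart past the 95% critical value. Tgfbr2 measured 6.93 in tNT line 2, above all other arrays (ratio 0.629). Tgfbr1 measured 9.59 in tNT line 2, the lowest of all arrays (ratio 0.672). Chance flags about 1 in 20 such sets, and these share the same arrays. None of the Nodal, Gdf3, Tdgf1, Lefty or Cer1 sets was flagged.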

How the results depend on the processing

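No alternative brought any of the 5 genes past the threshold between tNT and NT lines (91 alternative fits, smallest adjusted p = 0.138) or for passage (76 fits, smallest adjusted p = 0.101). The direction between groups turned for Tdgf1 with array weights (-0.052), and for Lefty1 (0.093) and Lefty2 (0.13) with the line number as a replicate block. The slope of Tdgf1 turned with its dimmer probe (-0.013). When 1 tNT line was left out, the slope of Nodal lay between -0.025 and 0.018 and that of Lefty2 between -0.038 and 0.011, both positive without tNT line 4. Over all genes the count was 164, 1381 with array weights, and 6 to 582 when 1 line was left out: 582 without tNT line 2, 92, 93, 97, 80 and 85 without tNT lines 1, 3, 4, 5 and 6, and 6 and 7 without NT lines 1 and 2. Array weights called 2 genes for passage, against 0 otherwise. With array weights 11 of the named pathway genes that had missed the threshold passed it, Foxh1 (-1.17, adjusted p = 0.0138) among them. By the sample titles, the line numbers name different lines. Deviations of tNT line 1 with NT line 1 and of tNT line 2 with NT line 2 correlated by 0.04 and 0.00 over genes. The deviations of the 2 NT lines mirror each other, so these are not separate checks. They cannot show whether lines of the same number share an origin. The block gave 157 calls, 88 of them shared with the 164, and Inhba passed (1.10, adjusted p = 0.0411). Among named genes with no call, the block turned Tgfbr2 (0.10) and Tgfbr1 (-0.034). With 1 line left out, Hspa5 lay between -0.014 and 0.46, negative without NT line 1, and Tgfbr1 between -0.081 and 0.20, negative without NT line 2. The r of Tdgf1 with Lefty1 turned with median scaling (0.060). Where the cause of a change is not given above, it was not tested.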
